A study of Rattus norvegicus with 48 samples.

Results

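The 100 probes described here were those most raised by a high-salt diet in the kidneys of Dahl salt-sensitive rats given a control antibody. They were chosen from measured values. Log2 signal was quantile normalised over the 24 kidney arrays, and 9469 of 22523 probes had a detection p below 0.05 on all 6 kidney arrays of rats on 8% NaCl with control IgG. Of these, the 100 with the largest mean difference from rats on 0.1% NaCl with control IgG were taken. The platform annotation named 93 of them, each for a different gene, and the other 7 are given by probe number. The difference that chose them was 2.52 (log2) for the top probe and 0.781 for Gatm, the last to be included. Cyp1b1, at 0.778, was the nearest probe left out.

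All rats were males of the inbred Dahl salt-sensitive strain (SS/JrHsd), which becomes hypertensive on a salty diet, and every group held 6 animals. High-salt antibody rats ate 8% NaCl and received a mouse monoclonal antibody against marinobufagenin, an endogenous steroid that inhibits the sodium pump (Na/K-ATPase). Low-salt antibody rats ate 0.1% NaCl and received the same antibody. High-salt control rats and low-salt control rats ate 8% and 0.1% NaCl and received a mouse IgG1 of no stated target. Each animal was given 1 intraperitoneal injection of 50 µg/kg, so that controls were injected too, and there was no uninjected group. The labels put the start of the diets at 6 weeks of age, their length at 8 weeks, the injection in diet week 7 at 15 weeks of age and the age of the animals at 16 weeks. These figures do not add up, so the time on the diet is uncertain. Kidney and left ventricle of each rat were measured on 1 bead array each (48 arrays, 24 animals), and the sample titles call the cardiac tissue lateral ventricle.

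In this strain a salty diet damages the renal tubules and leads to inflammation and scarring between them. Injured tubular cells secrete lipocalin, osteopontin and clusterin, fibroblasts and mural cells lay down collagens and their modifiers, and the liver-type acute phase proteins can also be made locally. The study set out to ask whether binding marinobufagenin with an antibody lowers profibrotic signalling through TGF-beta. The antibody arrays entered the choice of the 100 probes only through the shared normalisation, and the tests below are on the salt difference between the antibody groups, which was not the value ranked.

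In kidney, group ranges of detected probes (detection p below 0.05) ran from 10409 to 11084 in high-salt antibody rats, from 10077 to 10925 in low-salt antibody rats, from 10514 to 11163 in high-salt controls and from 9995 to 10928 in low-salt controls. High-salt control replicate 1 was a dim array, with a 95th percentile of signal of 10.96 (log2) against 11.98 to 12.23 on the other 5 arrays of its group, and it was the highest of its group for 39 of the 100 probes. Without it the rule kept 73 of the 100. Low-salt control replicate 2 had 9995 detected probes against 10550 to 10928 in the rest of its group, and a fit without both arrays is given beside the main count. Of 15 probes for heart muscle genes, 10 were detected on all 24 ventricular arrays, and 6 of these (Myh6, Myh7, Tnni3, Ckm, Mb and Nppb) on 0 kidney arrays, while 7 of the 15 were detected on at least 1 kidney array, Tnnt2 on all 24 and Myl3 on 22. Of 14 proximal tubule probes 13 were detected on all 24 kidney arrays and 8 on at least 1 ventricular array, Aqp1 on all 24. Of 7 podocyte probes 3 were detected on all 24 kidney arrays, and of these Nphs1 alone was on 0 ventricular arrays. In tissue samples like these, fewer cells of a type and less RNA per cell cannot be told apart.

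On control IgG the 10 leading probes were, in order, the unnamed ILMN_1353209, Timp1, Car3, Lcn2, Actg2, Ubd, S100a4, Serpina3n, Cldn4 and Hmox1, a description of how the set was chosen. By that same difference 88 of the 100 passed limma's threshold as higher and 0 as lower, where all 11534 tested probes gave 6.74% and 7.3%, and nothing is read from those counts because the difference chose the probes. Intensities are given from here on the log2 scale after background correction and quantile normalisation, as the lowest, the median and the highest of the 6 animals. Timp1, an inhibitor of matrix metalloproteinases, lay at 10.57, 11.91 and 12.32 in high-salt controls and at 9.51, 9.64 and 9.86 in low-salt controls, without overlap. Lcn2, the iron-siderophore carrier known as neutrophil gelatinase-associated lipocalin and a marker of tubular injury, lay at 9.92, 10.67 and 13.24 in high-salt controls and at 9.04, 9.44 and 9.69 in low-salt controls, again without overlap. Serpina3n, an acute phase inhibitor of serine proteases, lay at 7.36, 8.48 and 10.87 in high-salt controls and at 5.82, 6.11 and 6.76 in low-salt controls, without overlap. Hmox1, the heme-degrading enzyme, reached 12.22 in 1 high-salt control and 8.44 at most in low-salt controls, but its lowest high-salt value, 8.31, was below that. Ubd, a cytokine-induced ubiquitin-like modifier, and Cldn4, a tight junction protein, followed the same ordering with overlap in 1 or more animals.

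Several leading probes spread widely between animals of 1 group. Actg2, a smooth muscle actin, lay at 6.65, 10.71 and 12.32 in high-salt controls and at 7.01, 8.37 and 9.79 in low-salt controls. Car3, a cytosolic carbonic anhydrase of muscle and fat, lay at 9.996, 11.30 and 12.62 in high-salt controls and at 7.62, 8.26 and 11.45 in low-salt controls, where replicates 2 and 6 sat among the high-salt animals. S100a4, a calcium-binding protein of mesenchymal cells, was at 14.65 in high-salt control replicate 1 and between 9.85 and 11.61 in the other 5. Its choosing difference was 1.45 with that array and 0.825 without it. The top probe, ILMN_1353209, for which no gene name was given, lay at 11.12, 12.67 and 14.26 in high-salt controls and at 8.36, 10.11 and 11.03 in low-salt controls, without overlap.

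**Figure D1:**
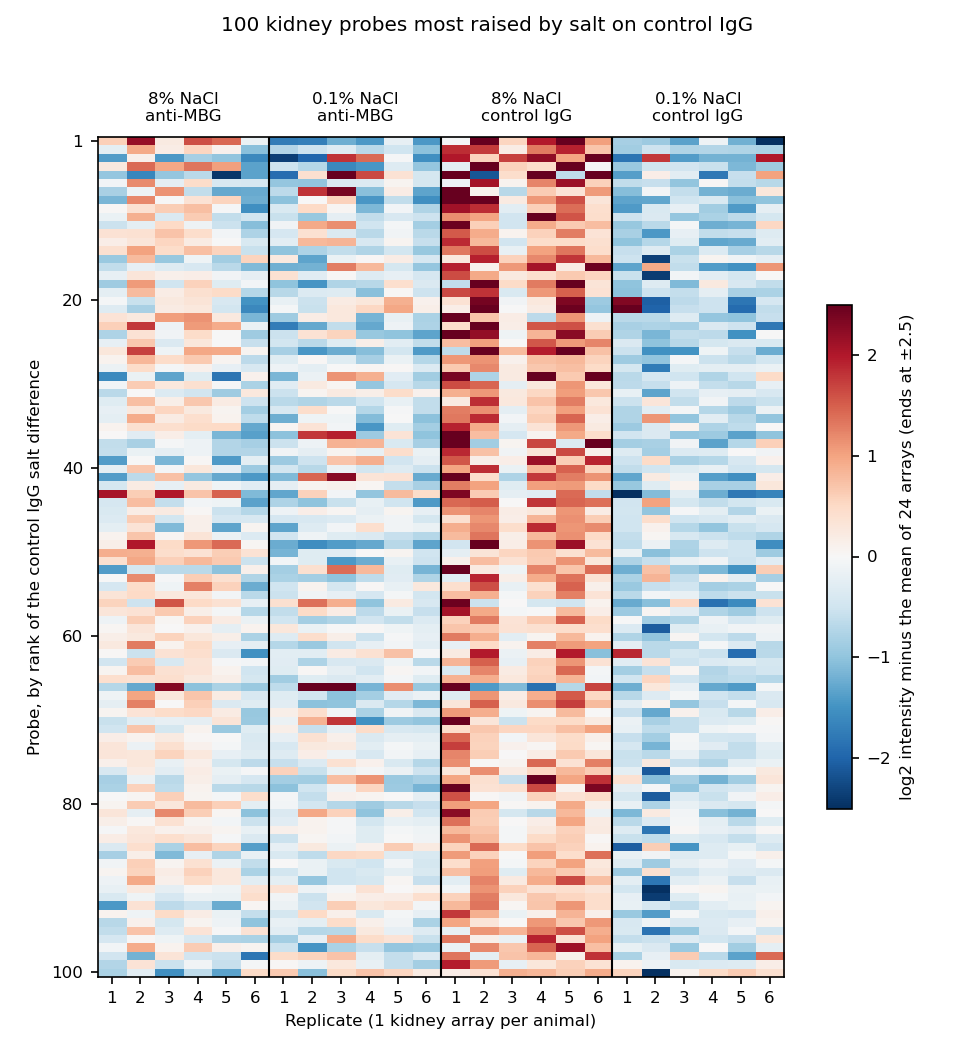
Log2 intensity of the 100 probes (rows, by rank of the salt difference on control IgG) on the 24 kidney arrays (columns, 6 animals per group), minus each probe's mean over the 24 arrays, with colours ending at 2.5 either way. High-salt controls, which were used to choose the probes, are high on average. High-salt antibody rats lie on average between high-salt controls and the low-salt groups, but 33 of the 100 probes are lower than in low-salt antibody rats. High-salt antibody replicate 6 and high-salt control replicate 3 are the lowest of their groups for 68 and 60 probes.

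Under the antibody, 10 of the 100 probes were higher on 8% than on 0.1% NaCl, and 0 were lower (limma with Benjamini-Hochberg adjustment over 11534 probes, adjusted p below 0.05). Over all tested probes 0.624% were higher and 1.21% lower at the same threshold, so the share of 10% lay above the background in the higher direction. Of the 10, Spp1 and Anxa1 were on the tubular injury list, Cdk1 on the proliferation list and Fgb on the complement, coagulation and acute phase list. Tnfrsf12a, Cks2, Reg3g, Car15, ILMN_1353209 and ILMN_1363793 were on none of the lists used. At an unadjusted p below 0.05 the counts were 24 higher and 2 lower (Actg2 and Steap1), where all probes gave 7.73% and 8.28%. The estimated difference was positive for 67 of the 100 probes, against 52.5% of all probes. Its median was 0.20 (log2) over the 100 and 0.01 over all tested probes, with quartiles of -0.16 and 0.60 and extremes of -1.79 and 2.28. The median of the same probes on control IgG, which chose them, was 1.22. With median scaling in place of quantile normalisation, which put the median of all tested probes at 0.19, 16 of the 100 were higher and 0 lower, and over all probes 294 were higher and 18 lower, where the main processing gave 72 and 140.

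The count of 10 depended on single animals. It was 3 without high-salt antibody replicate 4 or 5 or low-salt antibody replicate 4, 4 without low-salt antibody replicate 3, 5 without high-salt antibody replicate 2 or low-salt antibody replicate 6, and 6 without low-salt antibody replicate 5. Without high-salt antibody replicate 6 it was 14. Higher calls over all 11534 probes also moved, from 72 in the main fit to 156 without high-salt antibody replicate 6. They were 14, 13 and 20 without high-salt antibody replicate 4 or 5 or low-salt antibody replicate 4. Leaving the dim high-salt control array and replicate 2 of the low-salt controls out of the fit, which alters only the shared spread, gave 14 higher and 1 lower (Gatm). Over all probes that fit gave 308 higher and 468 lower. Car15 and Tnfrsf12a kept their calls in all 22 alternative fits run for them.

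Among the receptors and secreted proteins, Spp1, the gene of osteopontin, a phosphoprotein secreted by injured tubules and active in macrophage recruitment, lay at 14.11, 15.28 and 15.61 in high-salt antibody rats and at 13.22, 14.24 and 14.57 in low-salt antibody rats. Only high-salt replicate 6 fell within the low-salt range. The difference was 1.10 ± 0.24 (log2, SE, limma adjusted p = 0.0216). Tnfrsf12a, the receptor of the cytokine TWEAK, lay at 9.27, 10.32 and 10.82 in high-salt antibody rats and at 8.82, 9.06 and 9.35 in low-salt antibody rats. Its lowest high-salt animal was below the highest low-salt one, and the difference was 1.20 ± 0.25 (SE, adjusted p = 0.0168). Anxa1, a phospholipid-binding protein induced by glucocorticoids that dampens inflammation, lay at 11.82, 12.51 and 12.87 in high-salt antibody rats and at 11.18, 11.44 and 12 in low-salt antibody rats. It differed by 0.92 ± 0.20 (SE, adjusted p = 0.0216), with 1 animal of each group in the zone of overlap.

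Among the named genes past the threshold, Reg3g and Fgb had the largest estimates. Fgb, the beta chain of fibrinogen, lay at 7.50, 8.43 and 9.43 in high-salt antibody rats and at 5.94, 6.64 and 7.54 in low-salt antibody rats, with the groups just touching. The difference was 1.64 ± 0.38 (log2, SE, adjusted p = 0.0271). Reg3g, a secreted antimicrobial lectin, lay at 6.64, 7.36 and 8.46 in high-salt antibody rats and at 5.29, 5.60 and 6.29 in low-salt antibody rats. The groups did not overlap, and the difference was 1.72 ± 0.43 (SE, adjusted p = 0.0372). Car15, a carbonic anhydrase anchored in the cell membrane, lay at 11.17, 11.33 and 11.73 in high-salt antibody rats and at 9.66, 10.51 and 10.89 in low-salt antibody rats. It differed by 0.96 ± 0.19 (SE, adjusted p = 0.0149), and every high-salt animal was above every low-salt one.

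Cdk1 is the kinase that starts mitosis, and Cks2 is a small protein that binds such kinases. Cdk1 lay at 7.23, 7.40 and 8.22 in high-salt antibody rats and at 5.82, 6.44 and 6.75 in low-salt antibody rats, a difference of 1.18 ± 0.27 (log2, SE, limma adjusted p = 0.0255). Cks2 lay at 8.70, 9 and 9.48 in high-salt antibody rats and at 8.02, 8.32 and 8.54 in low-salt antibody rats, a difference of 0.78 ± 0.19 (SE, adjusted p = 0.0335). Neither gene's groups overlapped. Of the unnamed probes, ILMN_1353209 lay at 11, 12.18 and 13.35 in high-salt antibody rats and at 9.42, 9.72 and 10.96 in low-salt antibody rats, a difference of 2.28 ± 0.49 (SE, adjusted p = 0.0188). ILMN_1363793 lay at 7.31, 8.05 and 9.27 in high-salt antibody rats and at 5.70, 5.96 and 6.57 in low-salt antibody rats, a difference of 2.12 ± 0.43 (SE, adjusted p = 0.0149). In linear terms the 2.28 of ILMN_1353209 is a 4.84-fold difference. In all, 6 of the 100 probes had groups that did not overlap, higher in each case (Car15, Cks2, Cdk1, Reg3g and both unnamed probes), and 0 did so in the lower direction. Over all tested probes 1.07% and 1.21% did.

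**Figure D2:**
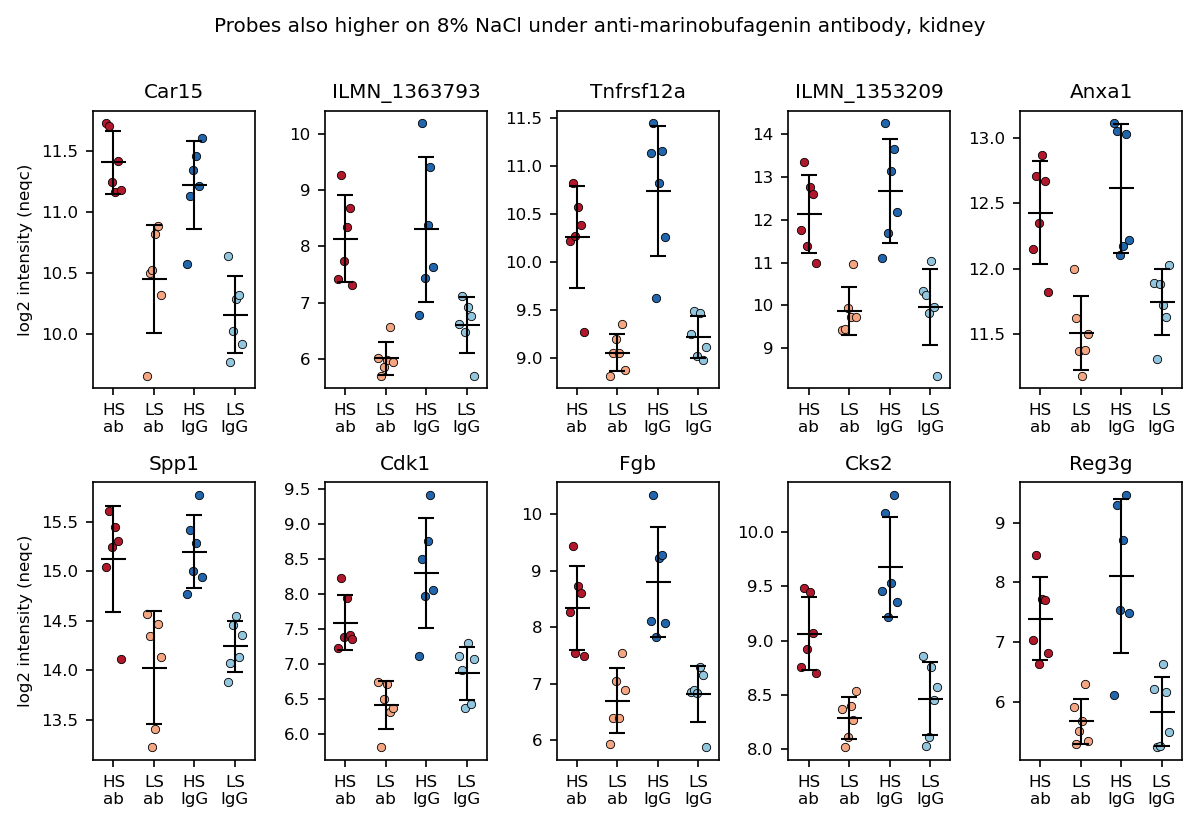
Log2 intensity in kidney of the 10 probes past the threshold under the antibody, 1 point per animal, with the mean and SD of 6 animals per group, from left to right high salt (HS) and low salt (LS) with anti-marinobufagenin antibody (ab) and with control IgG. Axes differ between probes and do not start at 0. In all 10 panels most high-salt antibody animals lie above the low-salt antibody animals.

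The region around the start of each gene was read for those with a RefSeq entry in the rat build GRCr8, 72 windows for 69 of the 93 named genes, each from 250 bases before to 50 bases after the start. The windows of Fgb, Reg3g, Cks2 and Cdk1 are shown because, of the genes past the threshold, they held the most matches to the motifs searched. Capitals mark matches on either strand. Fgb is on the minus strand at chr2:170700826-170701125, Reg3g on the minus strand at chr4:112484689-112484988, Cks2 on the minus strand at chr17:13727470-13727769 and Cdk1 on the plus strand at chr20:19265043-19265342. Sequences run 5′ to 3′ along the gene.
Fgb: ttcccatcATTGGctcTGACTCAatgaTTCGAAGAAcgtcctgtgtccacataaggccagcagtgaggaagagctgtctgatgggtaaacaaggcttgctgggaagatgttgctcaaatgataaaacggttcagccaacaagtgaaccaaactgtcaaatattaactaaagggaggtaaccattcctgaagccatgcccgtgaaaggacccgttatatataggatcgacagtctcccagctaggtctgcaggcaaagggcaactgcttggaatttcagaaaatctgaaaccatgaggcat
Reg3g: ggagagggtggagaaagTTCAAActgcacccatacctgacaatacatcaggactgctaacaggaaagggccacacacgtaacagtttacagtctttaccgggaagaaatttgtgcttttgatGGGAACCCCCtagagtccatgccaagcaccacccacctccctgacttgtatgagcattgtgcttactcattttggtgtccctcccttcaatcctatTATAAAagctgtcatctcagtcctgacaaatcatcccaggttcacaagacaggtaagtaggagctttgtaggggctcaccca
Cks2: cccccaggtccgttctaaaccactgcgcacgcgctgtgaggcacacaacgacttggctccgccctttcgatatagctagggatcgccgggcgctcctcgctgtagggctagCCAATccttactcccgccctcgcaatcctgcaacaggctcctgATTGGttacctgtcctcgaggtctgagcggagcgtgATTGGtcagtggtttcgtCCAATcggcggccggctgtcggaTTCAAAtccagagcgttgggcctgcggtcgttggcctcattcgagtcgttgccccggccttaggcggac
Cdk1: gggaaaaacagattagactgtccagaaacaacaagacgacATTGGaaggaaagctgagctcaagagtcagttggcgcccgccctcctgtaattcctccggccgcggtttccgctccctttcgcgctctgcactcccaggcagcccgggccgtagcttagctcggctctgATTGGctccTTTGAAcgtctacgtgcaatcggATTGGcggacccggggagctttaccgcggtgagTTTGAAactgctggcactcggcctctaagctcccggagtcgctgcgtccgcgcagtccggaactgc

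Cks2 and Cdk1 carried CCAAT boxes (CCAAT) and the cell cycle homology element (TTTGAA), a pair of elements known from promoters of genes expressed in dividing cells. Fgb carried an AP-1 match (TGANTCA), a STAT match (TTCNNNGAA) and a CCAAT box. Reg3g carried a TATA box (TATAAA), a match to the NF-kB motif and 1 cell cycle homology element. All motifs were searched on both strands, and the matches shown do not overlap. A match is a description of the letters only. Across the 72 windows of the set and all 33469 windows the shares were 11.1% against 7.33% for AP-1, 8.33% against 8.87% for STAT, 16.7% against 18.3% for the cell cycle element, 30.6% against 37.5% for CCAAT and 16.7% against 14.2% for TATA. The serum response motif known as the CArG box was found in 3 of the 72 windows (4.17%, against 1.64% of all), and the NF-kB motif in 8 (11.1%, against 7.51%).

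The other 90 probes did not pass the threshold under the antibody. The nearest by size was Lcn2, at 8.82, 11.15 and 11.57 in high-salt antibody rats and at 8.56, 9.32 and 9.85 in low-salt antibody rats. All high-salt animals except replicate 6, at 8.82, were above the low-salt range, and the difference was 1.53 ± 0.49 (log2, SE, adjusted p = 0.106). Lcn2 passed the threshold without replicate 6, with median scaling and with array weights. Timp1, the first named gene of the set, lay at 9.34, 10.54 and 11.34 in high-salt antibody rats and at 9.37, 9.79 and 10.07 in low-salt antibody rats, a difference of 0.71 ± 0.27 (SE, adjusted p = 0.192), and passed without replicate 6 and with array weights. C4b, a complement component whose probe may also read its close paralog, differed by 0.95 ± 0.33 (SE, adjusted p = 0.145).

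Of the 100 probes 33 had negative estimates, none past the threshold, and the 5 lowest are described here. Actg2 lay at 6.35, 7.63 and 8.12 in high-salt antibody rats and at 6.88, 9.17 and 11.42 in low-salt antibody rats, a difference of -1.79 ± 0.83 (log2, SE, adjusted p = 0.289). The low-salt animals covered a wider range than the high-salt ones. Gatm, which makes the precursor of creatine and is a proximal tubule gene, lay at 10.85, 11.67 and 12.87 in high-salt antibody rats and at 11.35, 12.90 and 13.10 in low-salt antibody rats, a difference of -0.94 ± 0.50 (SE, adjusted p = 0.362). In the control groups its medians were 13.11 on high and 12.82 on low salt, and 1 low-salt array, replicate 2, was at 8.96. The other estimates among these 5 were -1.20 for the unnamed probe ILMN_1364985, -1.17 for Mgst2, a microsomal glutathione transferase, and -0.79 for Fabp4, the fatty acid binding protein of fat cells. The choosing difference of ILMN_1364985 was 0.896 with high-salt control replicate 1 and 0.014 without it. Without that array Mgst2 and Fabp4 ranked 117 and 137, outside the 100.

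**Figure D3:**
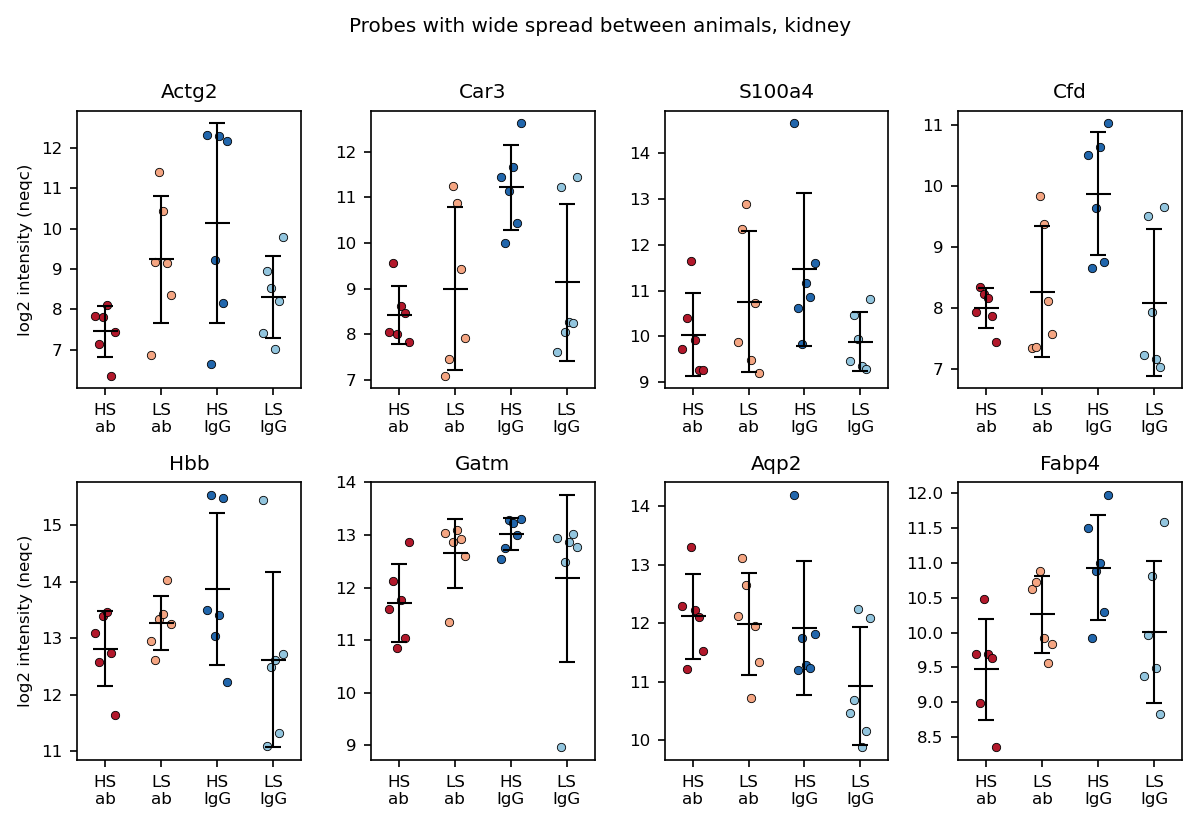
Log2 intensity in kidney of 8 probes of the set that spread widely between animals, 1 point per animal, with the mean and SD of 6 animals per group. Car3, Cfd and Actg2 spread over 2 or more log2 units among low-salt antibody rats and cover less than 2 in high-salt antibody rats, and Gatm has 1 low-salt control animal far below the rest.

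Grouped by role, the tubular injury and repair list (32 genes, 27 probes tested) had 12 of its probes in the set. The counts of every list below stand against 0.624% of all tested probes higher and 1.21% lower at the threshold, and 7.73% and 8.28% at an unadjusted p below 0.05. Under the antibody 3 of the 27 rose, Spp1, Anxa1 and Vim (vimentin, 0.60 ± 0.14, SE, adjusted p = 0.0247, not in the set), and 0 fell, with 10 higher and 1 lower at an unadjusted p below 0.05 (limma). Among the 12 in the set 8 had positive estimates, with a median of 0.33 (log2) and a range of -0.72 for S100a4 to 1.53 for Lcn2. Clu, a secreted chaperone, and Lgals3, a galectin of macrophages and injured epithelium, stood at 0.73 and 0.23. Anxa2, S100a11, S100a6, Ccl2 and Plat stood at 0.42, 0.23, -0.44, -0.16 and -0.03. By the choosing difference without high-salt control replicate 1, Ccl2 and Plat ranked 702 and 301. On control IgG the median of these 12 was 1.16.

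The extracellular matrix list (46 genes, 33 probes tested) also had 12 probes in the set, and 0 of the 33 rose or fell under the antibody (limma, 7 higher and 0 lower at an unadjusted p below 0.05). Col15a1, a basement membrane collagen, had the largest estimate, 0.92 ± 0.28 (SE, adjusted p = 0.0844), at 7.78, 8.03 and 9.41 in high-salt antibody rats and at 7.01, 7.28 and 7.85 in low-salt antibody rats. Col6a1, a microfibrillar collagen, stood at 0.54, Fn1 (fibronectin) at 0.48, Col8a1 at 0.45 and Col3a1, a fibrillar collagen of scars, at 0.33. Lum and Col14a1, which coat collagen fibrils, had negative estimates, -0.78 and -0.61, and Tagln, of smooth muscle and myofibroblasts, -0.22. Timp1, given above, also belongs here, and Mgp, Eln and Sparc lay between -0.06 and 0.17. The median of the 12 was 0.25 under the antibody and 1.35 on control IgG. Summed fibroblast markers (8 probes) ranged from 13.56 to 14.39 in high-salt antibody rats and from 13.53 to 14.16 in low-salt antibody rats, and from 14.05 to 14.87 in high-salt controls and from 13.67 to 14.05 in low-salt controls (log2 of summed intensity). Their part in the matrix values was not tested.

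The complement, coagulation and acute phase list (23 probes tested) had 5 probes in the set, Fgb, C4b, C1qb, Cfi and Cfd. Under the antibody 2 of the 23 rose, Fgb and C4bpb (0.55 ± 0.12, SE, adjusted p = 0.0188), and 1 fell, Apcs, the serum amyloid P component (-1.80 ± 0.37, SE, adjusted p = 0.0174). Cfi, a protease that inactivates complement, and C1qb, a chain of the first complement component made by macrophages, stood at 0.63 and 0.36 within the set. The proliferation list (27 probes tested) had Cdk1 and Rrm2 in the set, and Cdk1, Tpx2 (0.70 ± 0.18) and Ccnb2 (0.79 ± 0.21) rose while 0 fell (SE, adjusted p = 0.0255, 0.0471 and 0.0470; limma, 12 higher and 0 lower at an unadjusted p below 0.05). Rrm2, a subunit of the enzyme that makes deoxynucleotides, stood at 0.40 ± 0.29 (SE, adjusted p = 0.540).

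Of the TGF-beta list (26 probes tested) only Tgif1, a repressor of SMAD-driven transcription, was in the set. It lay at 7.76, 8.54 and 9.34 in high-salt antibody rats and at 7.97, 8.20 and 8.52 in low-salt antibody rats, a difference of 0.37 ± 0.25 (log2, SE, adjusted p = 0.505). In the rest of that list Grem1, which binds and blocks bone morphogenetic proteins, rose by 1.57 ± 0.30 (SE, adjusted p = 0.0132), and Id1, a target of those proteins, fell by 0.73 (-0.73 ± 0.16, SE, adjusted p = 0.0221). The oxidative stress list (28 probes tested) had Hmox1, Gpx2 and Ucp2 in the set, at 0.53, 0.71 and -0.15, and 0 of its probes rose while Nox4, an oxidase abundant in kidney, fell (-1.31 ± 0.33, SE, adjusted p = 0.0423; limma, 2 higher and 5 lower at an unadjusted p below 0.05). The lists of antigen presentation (26 probes tested), interferon response (23) and the renin-angiotensin system (11) had no probe in the set. Of these, 0 rose or fell in the antigen presentation and interferon lists (limma, 5 and 3 higher and 0 lower at an unadjusted p below 0.05), and in the last Hsd11b2, which protects the mineralocorticoid receptor from glucocorticoids, rose.

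Markers of several cell types were in the set. The smooth muscle markers Des and Tagln, the fat cell markers Cfd and Fabp4 and the fibroblast markers Col3a1 and Lum belonged to it. So did the red cell globins Hbb, Hbb-b1 and Hba-a1, the collecting duct water channel Aqp2, the macrophage gene C1qb and the proximal tubule gene Gatm. The globin probes, which may also bind transcripts of near-identical copies, had estimates of -0.45, -0.66 and -0.40 under the antibody, not past the threshold. Hbb spread from 11.10 to 15.45 among low-salt controls alone. Summed red cell markers (4 of 7 probes tested, Alas2 detected on 3 of 24 arrays) ranged from 13.13 to 14.96 in high-salt antibody rats and from 14.23 to 15.42 in low-salt antibody rats, and from 13.63 to 16.84 in high-salt controls and from 12.78 to 16.72 in low-salt controls. Summed fat cell markers (5 of 6 probes, Adipoq detected on 23 of 24 arrays) ranged from 12.29 to 12.62 in high-salt antibody rats and from 12.04 to 12.74 in low-salt antibody rats, and from 12.24 to 13.60 in high-salt controls and from 12.10 to 12.99 in low-salt controls. Car3 and Cfd were highest in the same low-salt animals, antibody replicates 3 and 4 and control replicates 2 and 6, and the part of fat tissue in those values was not tested. Among 14 proximal tubule probes 0 rose and 4 fell under the antibody (Slc13a3, Slc5a2, Slc22a8 and Pck1, by -0.72, -1.33, -1.42 and -0.62), and among 8 collecting duct probes 3 rose (Scnn1b, Hsd11b2 and Scnn1g, by 0.57, 0.65 and 0.62) (log2, limma). Their part in the values of the set was not tested. In the ion transport list (37 probes tested), to which Aqp2 also belongs, the 2 sodium channel subunits Scnn1b and Scnn1g rose, and Slc5a2, Slc22a8, Slc4a4 and Slc34a3 fell, the bicarbonate cotransporter Slc4a4 the furthest at -2.28 ± 0.29 (SE, adjusted p = 0.000508). Aqp2 itself stood at 0.13 ± 0.50 (SE, adjusted p = 0.932). Its choosing difference was 0.929 with high-salt control replicate 1 and 0.482 without it, where it ranked 368.

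Set against control IgG on the same diet, the 100 probes were lower in high-salt antibody rats than in high-salt controls in 97 cases, with a median difference of -0.72 (log2), and higher in low-salt antibody rats than in low-salt controls in 76 cases, with a median of 0.25. Over all tested probes these medians were 0.02 and 0.00363. Both comparisons share their control arrays with the difference that chose the probes, so they are given as a description with no test, and the choice of probes fixes part of the direction of both. Among the leading genes the difference of high-salt antibody from high-salt control rats was -2.80 for Car3, -2.69 for Actg2, -1.67 for Serpina3n, -1.20 for Timp1 and -0.46 for Lcn2. Of the 10 probes past the threshold for salt under the antibody, Car15 stood at 0.19, Spp1 at -0.07, ILMN_1363793 at -0.17 and Anxa1 at -0.19. Tnfrsf12a, Fgb, ILMN_1353209 and Reg3g stood at -0.48, -0.47, -0.54 and -0.71. Cks2 and Cdk1 were also lower on average than in high-salt controls, where they lay at 9.22 to 10.34 and at 7.12 to 9.41. Spp1 lay at 14.11 to 15.61 in high-salt antibody rats and at 14.77 to 15.77 in high-salt controls. Across the 100 probes, the salt difference under the antibody and that on control IgG had a Pearson r of 0.23, which is a description over probes that share animals and arrays.

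**Figure D4:**
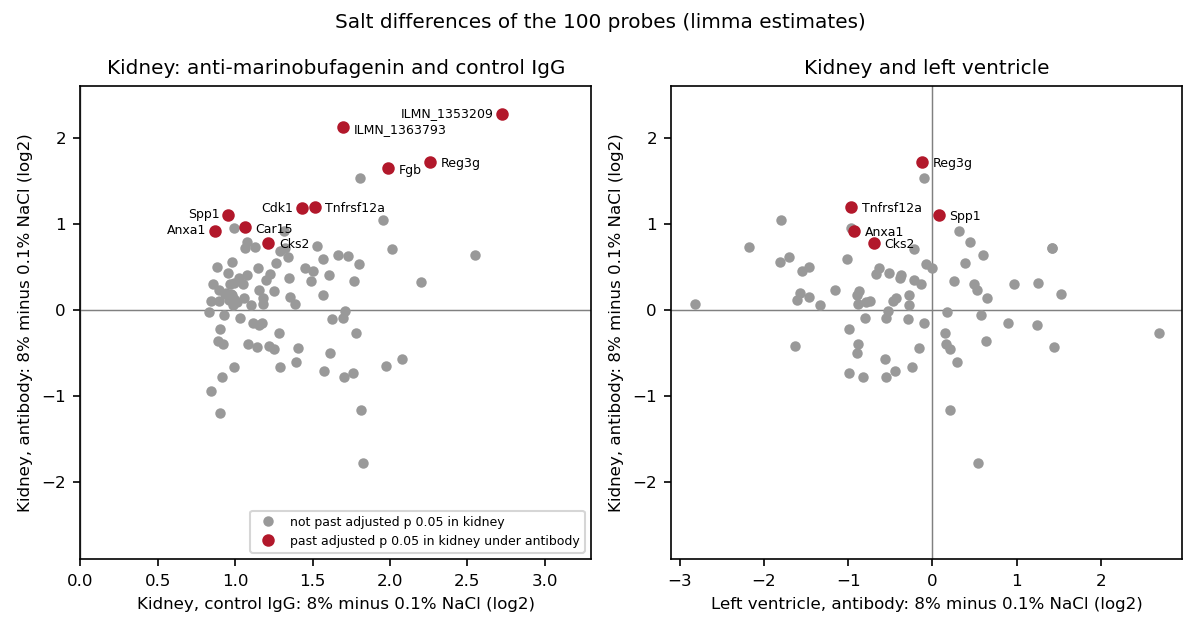
Each point is 1 probe of the set. The left panel sets the salt difference in kidney under the antibody (vertical, log2) against that on control IgG (horizontal, log2), which chose the probes, and the right panel sets the kidney difference under the antibody against that in the left ventricle under the antibody for the 81 probes tested there. Red points passed the threshold in kidney under the antibody, and 3 of the 5 red points of the right panel lie left of 0 with a call.

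Animal by animal, the median of the 100 probes above the low-salt antibody mean was 0.13, 0.58, 0.39, 0.45, 0.12 and -0.26 (log2) in high-salt antibody replicates 1 to 6. It ran from -0.18 to 0.15 in low-salt antibody rats, from 0.26 to 1.29 in high-salt controls and from -0.29 to 0.01 in low-salt controls. Replicate 6 of the high-salt antibody group was the lowest of its group for 68 of the 100 probes and replicate 2 the highest for 51. Among high-salt controls replicate 3, at 0.26, was the lowest of its group for 60 probes, and the other 5 animals lay between 0.78 and 1.29. Counted by probe, high-salt antibody rats had from 11 to 52 of the 100 probes above the highest low-salt antibody animal, high-salt controls from 36 to 82 and low-salt controls from 2 to 13. These medians describe a set chosen on the control groups and carry no test.

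Injury and matrix probes did not rank the animals alike. High-salt antibody replicate 3 had a median of 0.73 over the 12 injury probes and -0.05 over the 12 matrix probes, while replicate 2 was high on both, at 0.78 and 0.99. Low-salt antibody replicate 4 had -0.56 over the injury probes and 0.45 over the matrix probes. High-salt control replicate 1, the dim array, had the highest injury median of all, 1.79, and high-salt control replicate 4 the highest matrix median, 1.92. High-salt control replicate 3, with 0.08 and 0.52, lay within the range of the high-salt antibody rats for both.

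**Figure D5:**
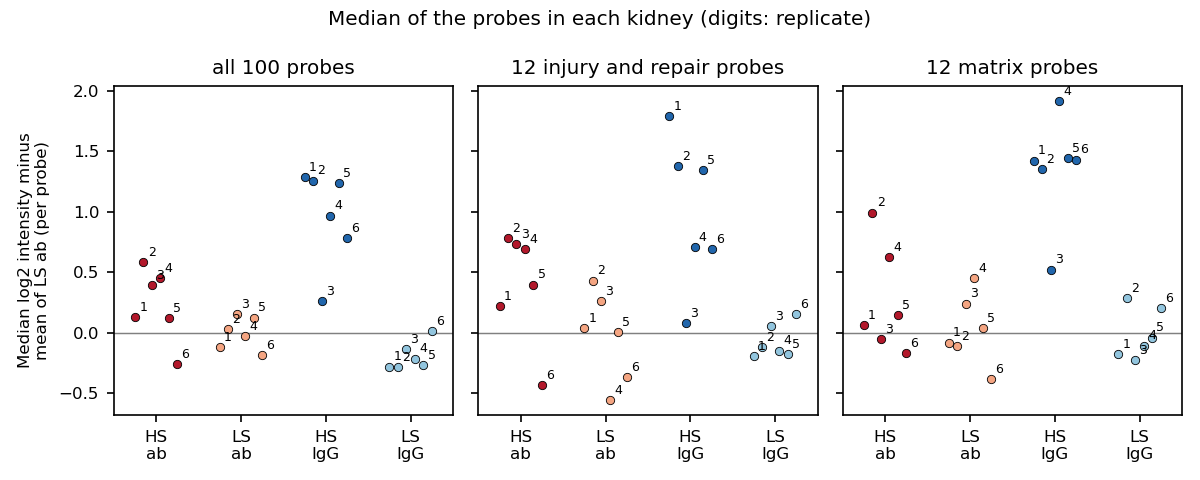
Median log2 intensity in each kidney, after subtracting each probe's mean in low-salt antibody rats, over the 100 probes, the 12 injury and repair probes and the 12 matrix probes. Points are animals and digits their replicate numbers. High-salt controls were used to choose the probes. In the left panel all of them except replicate 3 lie above every high-salt antibody animal. High-salt antibody replicate 6 lies at or below the low-salt antibody animals in the left panel.

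Ranking by a mean difference favours probes that vary, so the spread of the 100 is given as a description. Of the 100, 86 were detected on all 24 kidney arrays, near the 86.77% of the 9469 eligible probes. The median SD between animals (log2) was 0.52 in high-salt antibody rats and 0.40 in low-salt antibody rats, where eligible probes had 0.196 and 0.20.

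In the left ventricle the same probes went both ways. Of the 100, 81 were detected on at least 6 of 24 ventricular arrays and tested, and 15 were undetected on every one. The salt-loaded ventricular arrays were dim, with a 95th percentile of signal (log2) of 7.44 to 8.54 in high-salt antibody rats and 10.02 to 10.70 in low-salt antibody rats, and of 7.97 to 9.73 in high-salt controls and 10.24 to 10.69 in low-salt controls. Brightness therefore separated the diets without overlap, and its part in the ventricular values cannot be told apart from diet. With array brightness as a covariate 0 of the 81 were called in either direction under either antibody. Over all 8354 tested probes that fit called 0 higher and 0 lower under the antibody, and 0 higher and 2 lower on control IgG. With median scaling in place of quantile normalisation the calls were 0 higher and 76 lower under the antibody, and 1 higher and 68 lower on control IgG, and the median of all tested ventricular probes was then -1.57 and -1.20, against -0.31 and -0.13 in the main processing. Over all 8354 probes median scaling called 103 higher and 7033 lower under the antibody, and 164 and 6745 on control IgG. All ventricular directions below hold for the main processing.

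Under the antibody, 16 of the 81 were higher and 36 lower on high salt in the left ventricle (limma, adjusted p below 0.05), where all tested probes gave 27.2% higher and 44.4% lower. The members' shares, 19.8% and 44.4%, were thus below and at the background. Their median was -0.37 (log2) and that of all probes -0.31. On control IgG 26 were higher and 23 lower, shares of 32.1% and 28.4%, where all probes gave 25.2% and 34.5%. The medians were 0.21 for the members and -0.13 for all probes. These ventricles came from the same control rats whose kidneys chose the probes, so the animals of this comparison are not independent of the choice. Groups did not overlap for 10 higher and 21 lower probes under the antibody, against 16.8% and 27.5% of all, and for 14 higher and 10 lower on control IgG, against 15.4% and 17.8%. A total of 15 probes were higher and 22 lower in both ventricular comparisons, and 2 were called in opposite directions. No count over all probes stands beside these, so nothing is read from them. Over the 81 the estimates had a Pearson r of 0.78, a description of probes measured with the same brightness gap.

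Plp2, a membrane protein of the endoplasmic reticulum, led the ventricular rises. It lay at 10.08, 10.38 and 11 in high-salt antibody rats and at 8.78, 8.93 and 9.06 in low-salt antibody rats, a difference of 1.53 ± 0.17 (log2, SE, limma adjusted p = 5.293e-08), and it differed by 1.70 ± 0.17 on control IgG. Neither pair of groups overlapped. The unnamed ILMN_1376417 differed by 2.69 ± 0.33 under the antibody and 2.37 ± 0.33 on control IgG, Sh3bgrl3, a small thioredoxin-like protein, by 1.25 and 1.35, and Ucp2, a mitochondrial carrier, by 0.89 and 0.94. Gpx2, a glutathione peroxidase, differed by 1.42 ± 0.23 under the antibody, and Sparcl1, a secreted matrix-associated protein, by 0.74 ± 0.12 on control IgG. In median scaling Plp2, Sh3bgrl3 and Ucp2 took the opposite sign in both comparisons, and Sparcl1 on control IgG.

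Clu led the ventricular falls. It lay at 9.75, 9.98 and 10.36 in high-salt antibody rats and at 11.81, 12.17 and 12.59 in low-salt antibody rats, a difference of -2.18 ± 0.19 (log2, SE, limma adjusted p = 2.544e-09), and it differed by -2.01 ± 0.19 on control IgG. In kidney the same probe was the opposite way, at 0.73 under the antibody. Tagln2, an actin-binding protein, differed by -2.82 ± 0.34 in the ventricle under the antibody, Ctsd, a lysosomal protease, by -1.80 ± 0.21, and Ranbp1, a partner of the nuclear transport protein Ran, by -1.80 ± 0.23. On control IgG Ctsd and Ranbp1 differed by -1.49 and -1.96, Fblim1, which links filamin to cell adhesions, by -1.92 ± 0.28, and Fabp4 by -0.65 ± 0.11. RT1-M10-1, a class I histocompatibility gene, was undetected on all 6 ventricular arrays of high-salt antibody rats and detected on all 6 of low-salt antibody rats, at least 1.37-fold lower (adjusted p = 7.501e-07). C4b, Rasd1 and Cks2 were likewise undetected in that high-salt group and called lower, without a bound above 1.

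Of the 10 probes past the threshold in kidney under the antibody, 5 were tested in the ventricle, and under the antibody 0 were higher and 3 lower there (Tnfrsf12a, Anxa1 and Cks2; limma), where 44.4% of all tested ventricular probes were lower and where 0 were lower with brightness as a covariate. Spp1 lay at 5.44, 7.14 and 7.94 in ventricles of high-salt antibody rats and at 6.42, 6.91 and 7.69 in those of low-salt antibody rats, with overlap and a difference of 0.08 ± 0.41 (log2, SE, adjusted p = 0.872). On control IgG it lay at 6.65, 8.22 and 9.86 on high salt and at 6.43, 6.83 and 6.98 on low salt, a difference of 1.64 ± 0.41 (SE, adjusted p = 0.00138). Reg3g showed -0.12 ± 0.41 under the antibody and 1.48 ± 0.41 on control IgG (SE, adjusted p = 0.803 and 0.00326). Anxa1 was lower in both ventricular comparisons, by -0.93 ± 0.21 and -0.92 ± 0.21. Across the 81 probes the kidney and ventricular differences under the antibody had a Pearson r of -0.12, as a description.

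The salt difference itself was compared between kidney and ventricle of the same animals under the antibody (limma on the difference of each animal, 12172 probes). It was higher in kidney for 34 of the 100 probes and lower for 12, where all tested probes gave 31.8% and 21.6%, so the higher share was near the background and the lower share below it. The median was 0.50 (log2) over the 100 and 0.17 over all probes. The 81 probes tested in the ventricle held 30 of the 34 and 11 of the 12, and the 19 too rarely detected there held the other 4 and 1. The same kidney values enter this difference, so nothing is counted over the 10 probes past the threshold in kidney. The largest estimate was that of Ranbp1, 3.63 ± 0.66 (SE), which was detected on 1 of 6 ventricular arrays of high-salt antibody rats and on 6 of 6 of low-salt antibody rats. The lowest was that of ILMN_1376417, -2.71 ± 0.37 (SE), detected on all 12. With the difference in brightness between an animal's arrays as a covariate, 2 probes were higher in kidney and 0 lower. Over all 12172 probes that fit gave 144 higher and 140 lower.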

How the data were processed

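Expression was measured in kidney and left ventricle of 24 rats (4 groups of 6) on 48 single-colour bead arrays. The deposited values were probe intensities on a linear scale, not normalised between arrays, each with a deposited detection p-value, and a separate table held the authors' score per probe and array. The score matched, to within 0.00649, the log10 intensity centred and scaled to unit SD over an array's probes, which the labels' protocols do not state. The submitters' processing notes name GenomeStudio 2011.1. Which chip held each array is not given in the sources used here, and no block was fitted for it.

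Intensities were background-corrected from the detection p-values and quantile normalised with neqc (limma 3.58.1, R 4.3.3, offset 16) within kidney and within ventricle (24 arrays each). A probe was tested where at least 6 of the 24 arrays had a detection p below 0.05, by lmFit and eBayes on 4 group means, with Benjamini-Hochberg adjustment over all of them and a threshold of 0.05. The shared spread and the normalisation also draw on the control arrays that chose the members. Tissues were compared by subtracting each animal's ventricle from its kidney, with neqc run on the 48 arrays together. Fits were tested on simulated data.

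The members and gene lists were chosen with earlier results of these data known. Genes named are the 10 largest by the choosing difference, those past the threshold in kidney under the antibody (up to 12), the 5 lowest there, up to 5 rises and 5 falls in each ventricular comparison by smallest p, members of the gene lists and the probes at the edge of the set. Other genes were named after their values were seen. Names came from the platform annotation, updated through gene identifiers (13793 of 22523 probes had 1 name, 0 several and 8730 none, and 13752 matched the current table). Promoter windows are from RefSeq (GRCr8). Arrays within a group correlated between 0.967 and 0.995 in kidney and between 0.900 and 0.993 in ventricle, and 0 pairs were identical. The number of arrays limits the precision, and the p-values reflect variation from animal to animal. Same-numbered animals of different groups are different animals. Alternatives covered background correction, scaling, the authors' scores, detection filters, the arrays in the fit, array weights, brightness as a covariate, leaving out each array, and a block for the replicate number. Fits without 2 arrays in a tissue were chosen after seeing the data.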

Additional observations from a re-analysis of the deposited data

Results flagged for a closer look

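Of 80 groups of 6 values examined for the named kidney probes, 5 held an animal far from the other 5, and chance flags about 1 in 20 groups. Cldn4 was at 7.84 (log2) in high-salt antibody replicate 6, the others of that group at 9.34 to 10.12. ILMN_1353209 and ILMN_1363793, the unnamed probes past the threshold under the antibody, were at 10.96 and 6.57 in low-salt antibody replicate 5, where the others lay at 9.42 to 9.94 and at 5.70 to 6.01. S100a4 was at 14.65 in high-salt control replicate 1, the others at 9.85 to 11.61. Fgb was at 5.88 in low-salt control replicate 6, the others at 6.84 to 7.30. The salt difference under the antibody differed between tissues by the test of the difference itself for 34 probes higher and 12 lower in kidney than in ventricle (limma), beside a brightness gap between diets in the ventricular arrays.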

How the results depend on the processing

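In kidney under the antibody, 10 members were higher in the main processing and 0 lower. The count was 6 without background correction, 6 with the authors' scores, 6 of 79 tested under a strict filter (all 24 arrays at a detection p below 0.01), 16 with median scaling and 23 with array weights, which also called 3 lower (Gatm, Gstm1 and Steap1). Over all 11534 probes array weights called 865 higher and 1003 lower, and the main processing 72 and 140. Median scaling called 294 and 18, no background correction 64 and 144, and the authors' scores 162 and 156. The strict filter called 42 and 112 of 7192. Leaving out 1 array gave 3 to 14, and the median over the members ran from 0.15 to 0.42 (log2), the upper end when members were chosen without high-salt control replicate 1. In all other alternatives run for that count it stayed within 1.5 times of 10. Members chosen from other processings or without 1 control array shared 57 to 97 of the 100 and held 9 to 13 higher calls. Over its alternatives, Reg3g lost its call in 12, Cks2 in 10, Cdk1 and Fgb in 9 each, Anxa1 and Spp1 in 6 each, ILMN_1353209 in 3 and ILMN_1363793 in 2, mostly on leaving out an array.

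In the ventricle under the antibody the 16 higher and 36 lower became 0 and 76 with median scaling, 9 and 10 of 27 tested with the strict detection filter, and 0 and 0 with brightness as a covariate, and leaving out 1 array gave 13 to 17 and 33 to 37. On control IgG the 26 higher and 23 lower became 1 and 68 with median scaling, 10 and 9 of 27 with the strict filter and 0 and 0 with brightness, and 24 to 28 and 19 to 24 on leaving out 1 array. Over all 8354 probes median scaling gave 103 and 7033 under the antibody and 164 and 6745 on control IgG. Brightness gave 0 and 0, and 0 and 2. The strict filter gave 880 and 539, and 887 and 491, of 1859. With median scaling Plp2, Sh3bgrl3 and Ucp2 were at -1.16, -1.21 and -1.77 under the antibody, and they and Sparcl1 at -0.12, -0.42, -0.90 and -0.97 on control IgG. With brightness ILMN_1376417 was at -0.57 under the antibody and -0.077 on control IgG. The cause was not tested. The tissue difference, 34 higher and 12 lower, became 2 and 0 with brightness and 28 to 39 and 9 to 12 on leaving out 1 animal. Over all 12172 probes brightness gave 144 higher and 140 lower. Dim ventricular arrays limit every value there.

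The replicate number does not pair animals. Same-numbered kidney arrays of the high-salt and low-salt antibody groups correlated in their deviations between -0.29 and 0.19, and with the replicate number as a block 12 members were higher in kidney. The block gave 15 higher and 36 lower in ventricle under the antibody, 26 and 24 on control IgG, and 34 and 12 for the tissue difference.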

Other observations

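Several members outside the lists had positive salt estimates in kidney under the antibody that passed an unadjusted p of 0.05 and not the adjusted threshold (limma). Clec10a, a lectin of macrophages and dendritic cells, differed by 0.79 ± 0.25 (log2, SE, adjusted p = 0.108) and lay at 9.10, 9.73 and 10.48 in high-salt antibody rats and at 8.45, 9.10 and 9.34 in low-salt antibody rats (lowest, median and highest of 6). Slpi, a secreted inhibitor of leukocyte proteases, differed by 0.72 ± 0.25 (SE, adjusted p = 0.138), Klf6, a transcription factor induced early after injury, by 0.49 ± 0.22 (SE, adjusted p = 0.271), and Pvr, an adhesion receptor recognised by lymphocytes, by 0.63 ± 0.30 (SE, adjusted p = 0.294). Ctsd, the lysosomal protease that was lower on high salt in the ventricle, differed by 0.55 ± 0.21 in kidney (SE, adjusted p = 0.172). Steap1, a protein of the cell membrane, was the other way, at -0.67 ± 0.26 (SE, adjusted p = 0.189), and lay at 7.77, 8.62 and 9.58 in high-salt antibody rats and at 8.73, 9.32 and 9.83 in low-salt antibody rats.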
